A study of Mus musculus with 2 samples.

Results

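Open chromatin regions in later introns of protein-coding genes were examined in mouse common myeloid progenitors. A region belonged to this class if its summit lay over 5 kb from every GENCODE M21 protein-coding transcript start, in no exon, inside intron 2 or later of a protein-coding gene's longest transcript, and in no gene's intron 1. The peaks were those of the conservative list shared by both libraries, on chromosomes 1 to 19, with overlapping peaks merged and the strongest summit kept. The 102186 peaks became 67395 regions, 65789 of them on chromosomes 1 to 19. Of these, 44176 lay over 5 kb from a start, and 13731 met the whole rule, which was 31.1% of the distant regions and 20.9% of all regions. The other distant regions comprised 4997 in first introns, 2839 in exons and 22609 outside the exons and introns of these transcripts, called intergenic here.

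The data came from ATAC-seq, in which a transposase inserts sequencing adapters into accessible DNA, on 2 libraries of 50000 primary cells each from adult male C57BL/6J mice aged 5 to 6 weeks. The libraries were labelled biological replicates 1 and 2 of a single group, and both carried the same donor label. Separate animals were not stated, and the spread between the libraries may therefore be technical. Neither library had a treatment or a control, and all comparisons below are between classes of regions.

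Introns of long genes can hold enhancers, short stretches bound by transcription factors that raise the transcription of the host gene or of a gene beyond it. Common myeloid progenitors are bone marrow cells that give rise to granulocytes, monocytes, red cells and megakaryocytes. PU.1, RUNX1 and GATA factors bind many enhancers of these cells, and CTCF binds sites that anchor chromatin loops. The gene that holds a region in its intron is called the host below. The neighbour is the gene, other than a host, with the nearest protein-coding start. A blood gene was any of 239 genes on 7 lists of stem and progenitor, granulocyte-monocyte, erythroid, megakaryocyte, mast cell, lymphoid and signalling genes.

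The strongest later-intron region in each of 4 blood hosts and beside each of 4 blood neighbours is shown first, because each carries a consensus of a factor named above close to its summit. Each line gives the summit base and 50 bases on each side of it in mm10 (GRCm38), with consensus matches on either strand in capitals. The PU.1 consensus was AAGGAAGT or GAGGAAGT, that for RUNX was TGTGGTTA or TGTGGTTT, that for GATA was AGATAAG, and that for ETS and IRF together was GGAA and GAAA with 2 bases between. CTCF was searched by its 12-base consensus. Gfi1 and Hdc were chosen after their values were seen.
Foxp1 intron 4, chr6:99241766-99241866, plus strand: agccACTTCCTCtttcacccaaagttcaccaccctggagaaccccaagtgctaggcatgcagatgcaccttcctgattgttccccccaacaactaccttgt
Sox6 intron 9, chr7:115550600-115550700, plus strand: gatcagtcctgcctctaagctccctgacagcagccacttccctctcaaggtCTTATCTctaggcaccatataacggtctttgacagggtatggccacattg
Meis1 intron 8, chr11:18925082-18925182, plus strand: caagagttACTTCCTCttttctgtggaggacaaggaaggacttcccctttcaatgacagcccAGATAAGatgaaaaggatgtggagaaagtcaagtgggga
Mllt3 intron 2, chr4:87944530-87944630, plus strand: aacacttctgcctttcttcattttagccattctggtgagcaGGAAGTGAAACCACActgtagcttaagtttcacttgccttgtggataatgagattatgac
Evi5 intron 17, beside Gfi1, chr5:107759231-107759331, plus strand: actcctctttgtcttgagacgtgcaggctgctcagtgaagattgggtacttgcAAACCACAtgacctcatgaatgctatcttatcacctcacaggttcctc
Gabpb1 intron 8, beside Hdc, chr2:126636079-126636179, plus strand: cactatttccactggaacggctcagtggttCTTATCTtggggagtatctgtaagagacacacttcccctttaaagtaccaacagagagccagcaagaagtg
Cradd intron 2, beside Socs2, chr10:95195921-95196021, plus strand: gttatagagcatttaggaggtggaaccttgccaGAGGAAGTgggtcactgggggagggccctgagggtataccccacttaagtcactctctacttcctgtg
Ahi1 intron 6, beside Myb, chr10:20966233-20966333, plus strand: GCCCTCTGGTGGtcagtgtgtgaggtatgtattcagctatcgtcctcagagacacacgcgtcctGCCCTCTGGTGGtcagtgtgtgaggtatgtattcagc

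The Foxp1 region carried a PU.1 match and the Sox6 region a GATA match. The Meis1 region carried both a PU.1 and a GATA match. In the Mllt3 region the RUNX match overlapped an ETS and IRF match, so that both share a single run of capitals. The region beside Gfi1 held a RUNX match, that beside Hdc a GATA match and that beside Socs2 a PU.1 match. The region in Ahi1 held the same CTCF match in 2 copies of a tandem repeat. These matches are descriptions of the letters, not evidence of binding. The 8 regions were chosen for their matches and do not stand for the class. The strongest regions in Etv6, Bach2, Msi2, Plcg2 and Runx1, and beside Socs1, Il7r and Zap70, held no PU.1, RUNX, GATA or CTCF match.

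Later-intron regions were more frequent in blood genes than in other genes for the length of intron available. The available length, or territory, was all sequence that met the same position rule, counted on a grid of 100 bp. Blood hosts held 357 regions in 7.85 Mb, or 45.5 per Mb with a 95% Poisson interval of 40.9 to 50.4. Other hosts held 13374 regions in 558 Mb, or 24.0 per Mb with an interval of 23.6 to 24.4. The ratio of these densities was 1.90, with an interval of 1.71 to 2.11. In first introns the ratio of blood to other hosts was 2.02, with an interval of 1.70 to 2.39. Intervals cover counting error only, and treat regions of the same gene as independent.

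Blood hosts still made up a small part of the class, with 2.60% of its regions (exact binomial interval 2.34 to 2.88) in 1.39% of its territory. A further 163 regions, 1.19% (1.01 to 1.38), lay in a host that was not a blood gene but had a blood gene as neighbour. These had a density of 26.7 per Mb, against 23.9 per Mb where neither host nor neighbour was a blood gene. The ratio was 1.12 with an interval of 0.956 to 1.303, which includes no difference. The call depended on the setting. With only neighbours within 100 kb on both sides the ratio was 1.38 (1.15 to 1.67), with either of the nearest 2 other genes as neighbour 1.25 (1.12 to 1.40), with the rule at 2 kb from a start 1.17 (1.02 to 1.36) and with the pseudoreplicated list 1.13 (1.01 to 1.26). It lay below 1, at 0.895 (0.717 to 1.12), with 4 of the blood lists, and at 0.899 (0.708 to 1.14) in the stronger 50% of regions. The remaining 13211 regions, 96.2%, had neither. Later introns as a whole held 24.3 regions per Mb, against 29.9 in first-intron territory, a ratio of 0.811 (0.785 to 0.838). That ratio was not matched for distance to a start, and density by distance in later introns is given below. Intergenic territory held 16.2 per Mb.

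**Figure D1:**
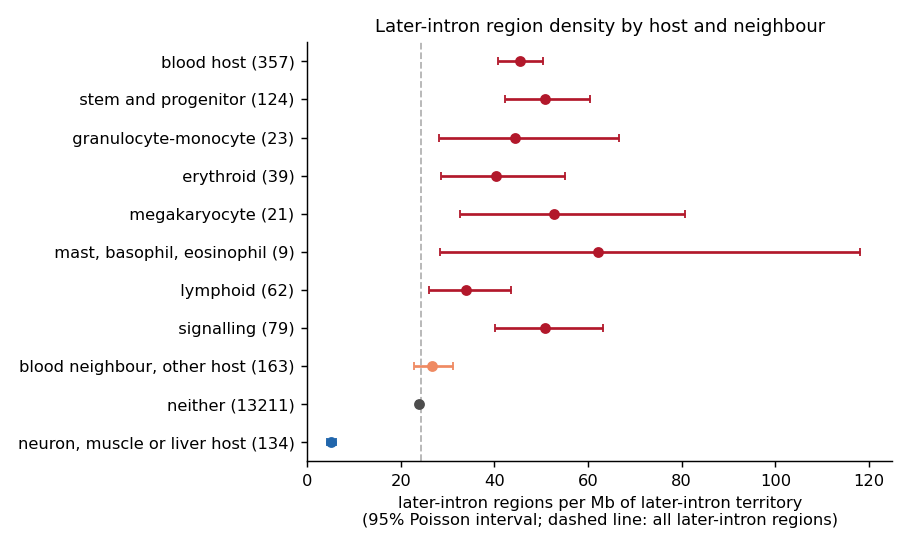
Later-intron regions per Mb of later-intron territory (horizontal axis) by the list of the host gene and by neighbour, with 95% Poisson intervals and the number of regions in brackets. The 7 blood lists lay between 34.0 and 62.2 per Mb, above the dashed line at 24.3 for all later-intron regions, and hosts from the neuron, muscle and liver list lay at 5.16.

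Each of the 7 blood lists had a higher density as host than the 24.3 per Mb of the class, as the plot of density by host shows. Stem and progenitor genes held 124 regions at 50.7 per Mb (42.2 to 60.5), and signalling genes 79 at 50.7 per Mb (40.2 to 63.2). Granulocyte-monocyte genes held 23 at 44.4 per Mb, erythroid genes 39 at 40.3 per Mb and megakaryocyte genes 21 at 52.8 per Mb. Lymphoid genes, which serve cells that this progenitor does not usually form, held 62 at 34.0 per Mb (26.1 to 43.6). Most of the 62 lay in Foxp1, with 18 in 428.6 kb of later introns, and Bach2, with 16 in 247.8 kb. Whether the lymphoid list without Foxp1 and Bach2 lies above the class was not tested. The 9 regions in mast cell, basophil and eosinophil genes gave 62.2 per Mb with a wide interval of 28.4 to 118. Genes of a list for neurons, muscle and liver held 134 regions in 25.97 Mb, or 5.16 per Mb (4.32 to 6.11), a ratio of 0.215 to hosts that are not blood genes. That ratio was not matched for host size, and hosts outside the blood lists with over 300 kb of later introns held 11.4 per Mb.

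Blood hosts had the higher density in each of 4 groups of host size. In hosts with under 30 kb of later introns, blood genes held 60.4 regions per Mb and other genes 35.1, a ratio of 1.72 (1.33 to 2.21). The ratio was 1.55 (1.26 to 1.90) at 30 to 100 kb, 2.13 (1.80 to 2.53) at 100 to 300 kb and 2.61 (2.05 to 3.32) above 300 kb. Blood genes of the 2 largest sizes numbered only 16 and 6. Above 300 kb the mean length of later introns was 387 kb in blood genes and 540 kb in other genes. Counted by gene, 86 of 162 blood genes with territory hosted a region, 53.1% (45.1 to 60.96), against 39.6% of all 13247 genes with territory. Within size groups those shares were 35.8% of blood genes and 25.4% of other genes under 30 kb, and 79.4% against 66.0% at 30 to 100 kb. The intervals of the blood shares were 26.8 to 45.7 under 30 kb and 62.1 to 91.3 at 30 to 100 kb, and that of the other genes at 30 to 100 kb, 64.2 to 67.8, lay inside the second of them. At 100 to 300 kb the shares were 93.75% (69.8 to 99.8) of blood genes and 83.6% of other genes. Above 300 kb they were 100% (54.1 to 100) and 79.1%.

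An accessible promoter went with a higher density as well. A gene was taken to have a promoter region if any region of the list met 1 kb around any of its starts, which held for 81.5% of blood genes with territory and for 71.6% of all genes with territory. Hosts with a promoter region held 28.7 regions per Mb and hosts without 14.3, a ratio of 2.01 (1.92 to 2.10). For hosts on the neuron, muscle and liver list these densities were 9.55 and 2.95 per Mb, and 15 of its 50 genes had a promoter region. Among hosts with a promoter region, blood hosts held 46.7 per Mb and other hosts 28.4, a ratio of 1.65 (1.48 to 1.84). The matched comparison of neighbours, in hosts that are not blood genes, showed no such difference. With a promoter region, blood neighbours had 26.14 regions per Mb and other neighbours 26.05, a ratio of 1.003 (0.851 to 1.18). Blood neighbours without a promoter region had 19 regions at 32.04 per Mb, with a wide interval that includes 26.14. Where the host had no promoter region, density was 17.8 per Mb if the neighbour had a promoter region and 9.57 per Mb if it had none, a ratio of 1.86 (1.71 to 2.03). Where the host had a promoter region, the same ratio was 1.07 (1.03 to 1.12).

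Density was lower farther from a start. Over the class it was 34.2 per Mb at 5 to 10 kb from the nearest start, 33.7 at 10 to 20 kb, 28.8 at 20 to 50 kb, 22.1 at 50 to 100 kb and 11.7 beyond 100 kb. Blood hosts held 44.7 per Mb at 5 to 10 kb against 34.1 in other hosts, a ratio of 1.31 whose interval of 0.935 to 1.84 includes no difference. Beyond 50 kb they held 38.5 per Mb against 15.7 in other hosts, a ratio of 2.46 (2.07 to 2.91). For blood neighbours the ratio was highest nearest to their start. Within 20 kb of the start of a blood neighbour there were 28 regions at 86.0 per Mb, against 36.8 per Mb beside other neighbours, a ratio of 2.34 (1.61 to 3.399). At 20 to 50 kb the ratio was 1.43 (1.08 to 1.90), at 50 to 100 kb 1.01 (0.716 to 1.42), and beyond 100 kb 0.863 (0.658 to 1.13). The 28 nearest regions belonged to 18 neighbours, and 21 of them lay nearer to the neighbour's start than to any start of the host.

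**Figure D2:**
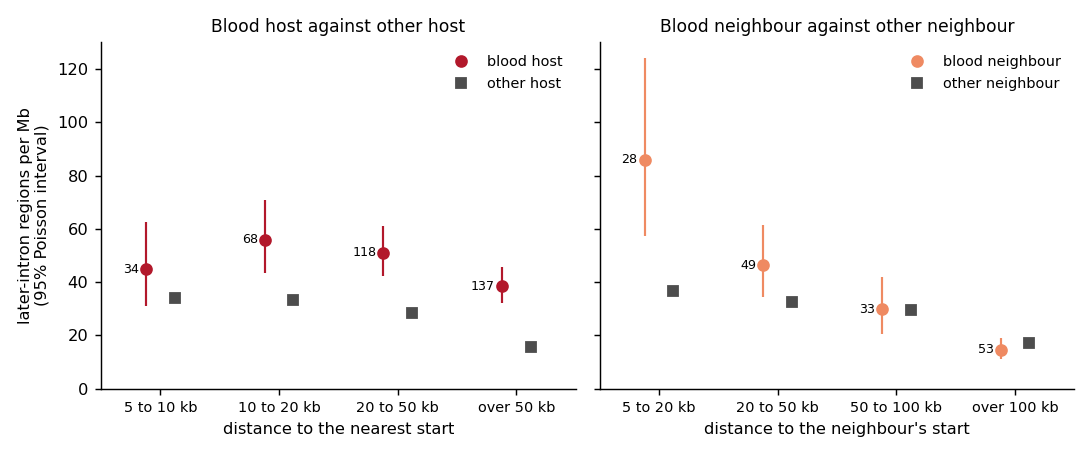
Later-intron regions per Mb (vertical axis, 95% Poisson intervals) for blood and other hosts by distance to the nearest start, and for blood and other neighbours, in hosts that are not blood genes, by distance to the neighbour's start. Numbers beside the points count regions. Blood hosts stood above other hosts beyond 10 kb, and blood neighbours above other neighbours within 50 kb.

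The class was spread over many hosts. In all, 5246 genes hosted at least 1 region, 2516 of them exactly 1, 750 at least 5 and 182 at least 10. The nearest start was that of a host for 74.96% of regions. Over the whole class the median distance to the nearest start of any gene was 28.1 kb (quartiles 14.2 and 60.5 kb). Regions were often close together, and within 10 kb of another later-intron region lay 56.6% of those in blood hosts and 48.4% of the class. The longest runs with gaps under 10 kb held 12 regions each, in Pik3ap1, an adaptor of phosphoinositide signalling, over 61.3 kb and in Rin3 over 48.1 kb. Etv6 held a run of 10 over 39.3 kb and Plcg2 a run of 8 over 22.3 kb.

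Blood genes with 5 or more later-intron regions numbered 24. Etv6, an ETS family repressor needed by blood stem cells, held 21 regions in 191 kb of later introns. Their signal, the value deposited by the authors for each peak on a scale not given in the sources used here, lay between 3.12 and 8.73 with a median of 5.23, below the 8.41 of the class, and 7 of the 21 were in both replicates' own lists. The strongest, at chr6:134220139-134220885 in intron 3, had a signal of 8.73 in the shared list, 8.37 in replicate 1 and 8.77 in replicate 2. Erg, another ETS factor, held 12 regions with a median signal of 5.54, of which 2 were in both lists. Runx1, a master regulator of blood formation, held 11 in introns 2, 6 and 7, with signals of 4.26 to 10.7.

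Meis1, a homeobox factor of stem cells, held 9 regions. They had signals of 4.83 to 11.5, and the strongest was the region with PU.1 and GATA matches shown above, at 10.7 in replicate 1 and 11.1 in replicate 2. Msi2, an RNA-binding protein of stem cells, held 13 regions with a highest signal of 13.5. Mllt3, Prdm16, Ikzf1 and Ikzf2, chromatin and transcription regulators of stem and early progenitor cells, held 7, 7, 7 and 8 regions. The strongest of Mllt3 had a signal of 13.7. In the Ikzf1 gene, which encodes Ikaros, 5 of 7 regions were in both lists.

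Sox6, a factor that represses embryonic globin in red cells, held 13 regions with a median signal of 8.90, and 8 of them were in both lists. Its strongest region, the sequence with a GATA match, had a signal of 13.5 in replicate 1 and 13.02 in replicate 2. Bcl11a, another globin repressor, held 6 weak regions with signals of 3.85 to 5.89, and 0 of them were in both lists. Foxo3 held 5. Among megakaryocyte genes, Vwf, which encodes the platelet adhesion protein von Willebrand factor, held 6 regions with signals of 4.99 to 12.5, although the gene had no promoter region. Rab27b, a regulator of platelet granules, held 6 with signals of 6.26 to 15.6.

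Several hosts are known for lymphoid cells. Foxp1 held 18 regions and Bach2, a repressor active in B cells, held 16, of which 5 and 7 were in both lists. Ebf1, a factor that sets B cell identity, held 5 regions in 377 kb of later introns. Lef1, a nuclear effector of Wnt signalling, held 4, and the strongest reached 19.2, the highest signal in any blood host. The signalling hosts were Plcg2 and Prkcb with 12 regions each, Lyn and Dock2 with 8 each and Inpp5d with 6. These encode a phospholipase, kinases, an activator of Rac and a phosphatase that act below immune and cytokine receptors. Lyn held 16.3 regions per 100 kb of later introns and Dock2 1.94. Cx3cr1, a chemokine receptor of monocytes, held 5, but its longest annotated transcript spans 167 kb, and 3 of the 5 were in Ttc21a too. With the longest transcript chosen by spliced length Cx3cr1 held 2.

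**Figure D3:**
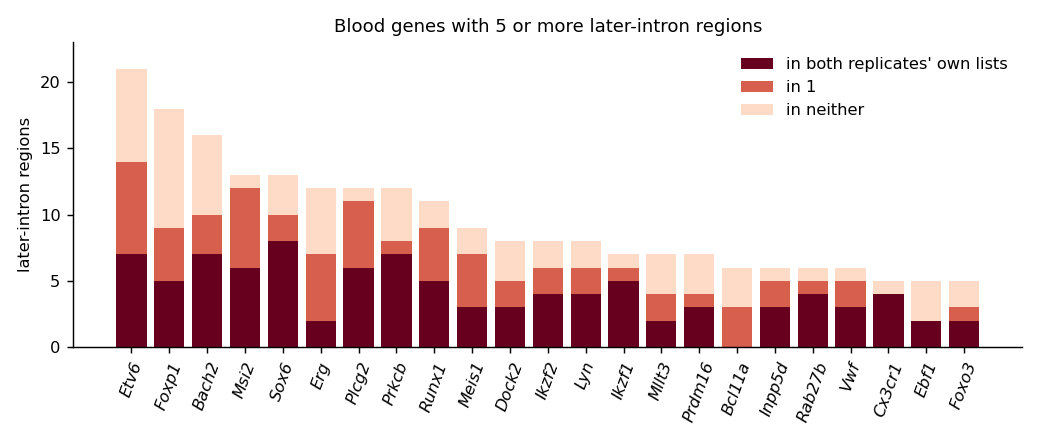
Number of later-intron regions (vertical axis) in 23 of the 24 blood genes with 5 or more, divided by presence in the own lists of replicates 1 and 2. Etv6 held 21 regions, 7 of them in both lists, and Bcl11a held 6 with 0 in both lists.

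Of the 162 blood genes with territory, 76 hosted no region. Their later introns were shorter, with a median of 5.10 kb against 40.5 kb in blood genes that hosted a region, and 52 of the 76 had a promoter region. Some long genes were among them, and 8 of the 76 had 30 kb or more of later introns. As an example, though not the longest, Mecom, a stem cell regulator, had 39.7 kb of later introns with 0 regions and 14 regions in its first intron. Jak2, a kinase that acts below cytokine receptors, had 51.1 kb and 0 regions. Kit, the stem cell factor receptor, had 2 regions, with a highest signal of 5.43. Gata2 and Tal1 have few kb of later introns and hosted 0.

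Blood neighbours numbered 76 genes, and the regions beside them lay in introns of 85 other genes. Myb, needed for progenitor growth, had 8 such regions, all in introns of Ahi1 and 83.7 to 195 kb downstream of the Myb start. The most distant of them, with the CTCF repeat, was also the strongest of all regions beside blood neighbours, at chr10:20966107-20966595 with a signal of 17.8 in the shared list, 15.9 in replicate 1 and 15.02 in replicate 2. Its distance to the nearest start of Ahi1 was 13.7 kb. Of the 8, 5 were in both lists.

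Socs1 and Socs2 encode feedback inhibitors of cytokine signalling. Socs1 had 8 in Clec16a, 47.8 to 120 kb from its start, with signals of 5.57 to 12.6 and 5 in both lists. Socs2 had 7 in Cradd, 117 to 235 kb away, with signals of 6.32 to 9.87 and 3 in both lists. The related genes Cish and Socs3 had 2 and 1. All 4 are too short to hold later-intron territory. Of the cytokine receptor genes, Il7r had 6 regions in Capsl and Spef2, 66.2 to 185 kb from its start, the strongest at 15.2. Il6st, which encodes the shared receptor chain gp130, had 5 in Ankrd55 and Il31ra, 77.1 to 140 kb away, with signals of 8.23 to 12.5. The strongest beside Il7r lay 172 kb from its start and 46.7 kb from that of its host Spef2. For Il6st these distances were 109 kb and, to the host Ankrd55, 36.7 kb.

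Some granulocyte and megakaryocyte genes had regions within 50 kb. Gfi1, a repressor needed for granulocyte formation, had 3 regions in introns of Evi5, 23.7, 33.2 and 42.4 kb upstream of its start. Their signals were 13.4, 14.7 and 8.45 in the shared list. In replicate 1 they were 11.9, 13.4 and 7.75, and in replicate 2 they were 12.4, 14.7 and 6.85. Both nearer regions were in both lists, and the farthest in that of replicate 1 only. For comparison, the host start of the 33.2 kb region lay 109 kb away. Mpo, the neutrophil enzyme myeloperoxidase, had 3 regions in introns of Lpo, 5.92, 9.10 and 14.6 kb from its nearest start, with signals of 7.02, 8.04 and 7.89. All 3 were in the list of replicate 1, and 2 also in that of replicate 2.

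Tal1, a master factor of blood stem and red cells, had 1 region in intron 14 of Stil, 21.2 kb upstream, with signals of 7.82 in replicate 1 and 9.76 in replicate 2. Hdc, the histamine-forming enzyme of mast cells and basophils, had its strongest region in Gabpb1, 17.5 kb upstream, with signals of 11.9 in replicate 1 and 13.5 in replicate 2. Plek, a platelet signalling protein, had its strongest region in Cnrip1, 17.2 kb upstream, at 11.1 in replicate 1 and 10.4 in replicate 2. Gp9, a subunit of a platelet adhesion receptor, had 4 in Efcc1, 29.8 to 37.4 kb away, but they were weak at 3.89 to 6.05 and 0 were in both lists. Mpo, Tal1 and Plek were also chosen after their values were seen.

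**Figure D4:**
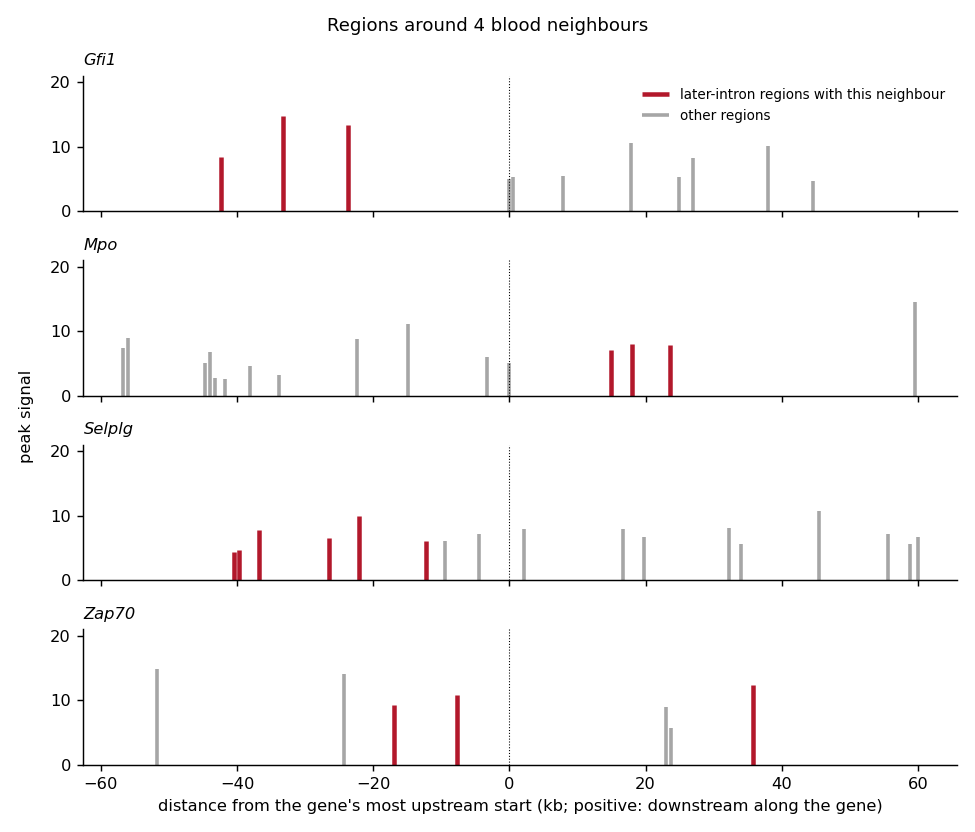
Peak signal of each region of the shared list (vertical axis) against distance from the most upstream start of Gfi1, Mpo, Selplg and Zap70 in kb (horizontal axis), with later-intron regions that have the gene as neighbour in red and other regions in grey. The red regions of Gfi1 and Selplg lie upstream, those of Mpo downstream, and those of Zap70 on both sides. Distances in the text are to the nearest start, which for Mpo is a downstream one.

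Other neighbours with 5 or more regions included Selplg, Zap70, Klrb1c and Irf4. Selplg, the selectin ligand of white cells, had 6 regions in Coro1c, 12.3 to 40.5 kb upstream, the strongest at 9.94. Zap70, a T cell kinase without a promoter region here, had 6 in Tmem131 and 4933424G06Rik with signals of 5.57 to 12.3, and 5 of them were in both lists. Klrb1c, a natural killer receptor, had 5 in a single intron of Gm44511. Irf4, a factor of lymphoid and myeloid cells, had 5 in Dusp22 and Exoc2, of which 0 were in both lists. Another 9 neighbours tied at 3 regions, Gfi1 and Mpo among them. Bach2, Cd34, Cd79b, Cebpd and Ank1 had 3 each, with the strongest at 7.83 in Map3k7, 9.69 in Plxna2, 6.50 in Scn4a, 8.16 in Spidr and 11.3 in Kat6a. In the same order, those strongest regions lay 233, 177, 15.1, 69.3 and 39.0 kb from the neighbour's start. Id2 and Prg3 also had 3, with the strongest at 10.8 in Kidins220 and 7.498 in P2rx3. In all, 144 of the 163 regions had a neighbour with a promoter region, as did 9779 of the 13211 regions with neither a blood host nor a blood neighbour. A host with a promoter region was present for 132 of the 163, and for 81.8% of the class.

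The hosts with most regions were long genes outside the blood lists. Fgfr2, a fibroblast growth factor receptor, counted 62 regions in 2194 kb of later introns, and its longest annotated transcript spans 2961 kb. With the longest transcript chosen by spliced length it counted 0. Pde4d, a phosphodiesterase gene, counted 35 regions by the main rule and 0 by spliced length. Zfhx3, a transcription factor gene, held 36 by both rules, and Arid1b, a subunit of a chromatin remodelling complex, held 28 by both. Nav2 held 33 by the main rule and 18 by spliced length. Wwox held 25 by the main rule and 0 by spliced length. Camta1, Snx29, Trappc9 and Gm37240 held 24 to 26 by the main rule and 18 to 24 by spliced length.

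Blood-gene regions were not the strongest of the class. The median signal was 7.25 in blood hosts, 7.70 beside blood neighbours and 8.48 with neither. Over all later-intron regions it was 8.41, with quartiles of 6.68 and 10.7, against 7.80 in first introns and 8.61 in intergenic regions. The 10 strongest later-intron regions, at signals of 22.0 to 34.5, lay in Gnb1l, Erich1, Plcb1, Peak1, Rai14, Nrxn3, Pde4d, Cpne4, Itga1 and Usp32, none of them on a blood list. Whether reads from other copies of the sequences at these 10 regions add to their signals was not tested. The region in intron 2 of Gnb1l, at chr16:18533130-18533394, had 28.9 in replicate 1 and 32.1 in replicate 2. That in intron 9 of Nrxn3, a synaptic gene, had 19.7 in replicate 1 and 21.1 in replicate 2, and carried an ETS and IRF match. With only the upper 50% of all regions by signal, the density ratio of blood to other hosts was 1.32 (1.10 to 1.57).

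Agreement between the libraries was below that of the whole list. A later-intron region met a region of both replicates' own lists in 42.8% of cases (42.0 to 43.7), against 50.6% of all regions, 44.3% of first-intron regions and 46.3% of intergenic regions. Blood-host regions were at 40.9% (35.8 to 46.2), and regions with neither at 42.9%. Replicate 1's own list met 62.6% of the class and replicate 2's 47.7%, while 32.5% were in neither. Those lists differed in size, with 46420 regions for replicate 1 and 36740 for replicate 2. In the lowest of 3 signal groups of equal size over all regions, 8.58% of later-intron regions were in both lists, against 13.2% of first-intron regions. In the highest group the shares were 83.9% and 88.6%. A peak of both replicates' own pseudoreplicated lists met 92.8% of later-intron regions, and their signals had a rank correlation of 0.864 over 12742 regions, which share the selection by the shared list.

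Blood-host regions had a lower share of CTCF matches than regions with neither a blood host nor a blood neighbour, with intervals that did not overlap. A CTCF match within 50 bp of the summit was present in 7.84% of blood-host regions (5.27 to 11.1), against 15.5% of regions with neither (14.9 to 16.1), 8.26% of first-intron regions and 12.4% of all regions. Regions beside blood neighbours were at 17.2% (11.7 to 23.9), and regions in neuron, muscle and liver hosts at 20.9% (14.4 to 28.8). These are shares of regions, not densities. Regions with a CTCF match numbered 28 in 7.85 Mb of blood-host territory and 2050 in 552 Mb with neither. In neuron, muscle and liver hosts they numbered 28 in 25.97 Mb. The share with a GATA match ran the other way from that with a CTCF match. It was 6.44% in blood hosts (4.13 to 9.51), 6.75% beside blood neighbours (3.42 to 11.8) and 3.85% with neither (3.53 to 4.195), against 3.11% of all regions. Both blood intervals overlapped that of regions with neither.

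PU.1 matches were found in 10% of later-intron regions (9.502 to 10.5) and 8.35% of all regions, and RUNX matches in 6.26% (5.86 to 6.68) and 4.88% of all regions. First-intron regions were at 11.1% (10.2 to 11.97) for PU.1 and 7.12% (6.43 to 7.87) for RUNX, and intergenic regions were at 9.64% (9.26 to 10.03) for PU.1 and 5.92% (5.61 to 6.23) for RUNX, all with intervals that overlapped those of the class. Blood hosts had 11.8% for PU.1 (8.61 to 15.6) and 8.12% for RUNX (5.51 to 11.5), within counting error of 9.97% and 6.23% in regions with neither. Promoter regions were lower, at 3.72% for PU.1 and 1.23% for RUNX. Not every consensus searched was more frequent in the class than over all regions. That for KLF factors matched 12.8% of the class and 19.1% of all regions, and that for AP-1 4.43% and 4.01%. C/EBP matches were rare, at 0.160% and 0.166%. Later-intron regions with a RUNX match were in both lists in 48.7% of cases and those without in 42.4%. For PU.1 these shares were 46.9% and 42.4%. For CTCF the order was reversed, at 38.6% with a match and 43.6% without, although the median signal was 8.90 with a match and 8.34 without. Of regions with a CTCF match, 9.02% lay mostly in annotated repeats at the summit, against 4.01% of the class.

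**Figure D5:**
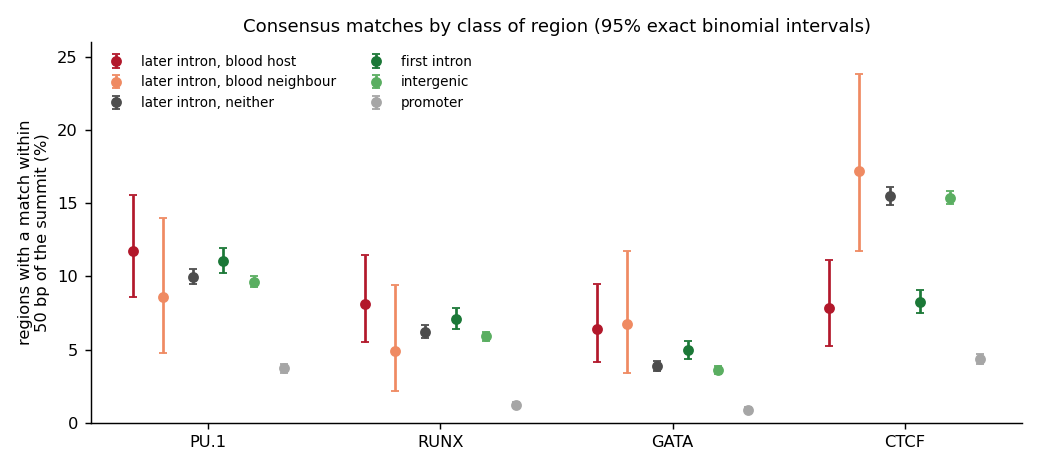
Share of regions with a consensus match within 50 bp of the summit (vertical axis, percent, exact 95% binomial intervals) for PU.1, RUNX, GATA and CTCF, by class of region. CTCF was at 7.84% in blood hosts and 15.5% in later-intron regions with neither a blood host nor a blood neighbour.

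On both sides of the 5 kb limit signals were compared without a test. The 218 later-intron regions at 5 to 5.5 kb from a start had a median signal of 8.13, and the 216 at 4.5 to 5 kb, outside the rule, had 7.01. Density was 26.1 per Mb in intron 2 (25.1 to 27.0), 24.9 in intron 3, 23.9 in introns 4 to 6, 25.1 in introns 7 to 10 and 22.2 from intron 11 on (21.5 to 23.01).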

How the data were processed

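ATAC-seq peak lists of 2 libraries were used, aligned to mm10 per the labels. The authors deposited peaks with a signal value and a −log10 q-value for each peak. Aligner, peak caller and their settings are, in the sources used here, not given. The lists hold no counts, so the depth is unknown and intervals cover counting error only. Column 7, the signal, was used within a list only. The lists shared by both libraries and each library's own lists were read, and the ranked and replicated lists were not used. Regions were classified with GENCODE M21, and sequences were read from the RefSeq copy of GRCm38. Intervals came from SciPy 1.17.1, sequence was read with pysam 0.24.0, and tables were handled with pandas 2.3.3 on NumPy 2.4.6 (Python 3.11.15). The classification was compared with a plain reading of the same annotation at random positions of 1 chromosome. The density ratio was tested on positions simulated with a known ratio. No p-values were computed, because there is a single group. Motif matches are to 17 consensus sequences within 50 bp of the summit. The genes named are blood hosts with 5 or more regions, the 10 hosts with most regions, the hosts of the 10 strongest regions and the 15 blood neighbours with most regions, extended to all 9 that tied at 3 regions. Any other blood gene could be named, and results on some genes are not reported here. The members, gene lists and motifs were chosen with earlier results of these data known.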

Additional observations from a re-analysis of the deposited data

How the results depend on the processing

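Of 82 values under other settings, 56 lay inside the interval of the main value and 26 moved outside it. No ratio whose interval excluded 1 crossed 1, but that of blood to other neighbours, whose interval includes 1, lay below 1 in 2 settings given here. The cause was not tested. When only the stronger 50% of all regions were kept, the density ratio of later-intron to first-intron territory was 0.947, the shares with a blood host and with a blood neighbour were 1.82% and 0.966%, their density ratios 1.32 and 0.899, the CTCF share 17.5% and the share in both lists 70.2%. The first of these ratios was 0.779 with the pseudoreplicated list and 0.842 beyond 10 kb. Neighbours within 100 kb gave a share of 0.801% and a ratio of 1.38, and either of the nearest 2 other genes a share of 2.29%. With 4 of the blood lists the host share was 1.51%, the neighbour share 0.575% and the neighbour ratio 0.895. Matches within 100 bp were 14.1% for PU.1, 9.38% for RUNX, 6.25% for GATA and 16.3% for CTCF. Overlap of at least 50% gave 41.4% in both lists, and pseudoreplicated lists 92.8%. Leaving out either replicate gave 0.783 to 0.832 for the first ratio, 11.1% and 9.61% for PU.1, 7.16% and 6.25% for RUNX, 4.18% and 4.53% for GATA and 13.6% and 15.8% for CTCF. It gave 2.56% and 2.65% for blood hosts, 1.86 and 1.94 for their density ratio, 1.13% for blood neighbours and 1.06 for theirs. No paired analysis was possible because the libraries form a single group and no result comes from a test. Depth is unknown, so whether a region missing from a library's own list is closed there cannot be read from these lists.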
